A study of Rattus norvegicus with 20 samples.

Results

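The enzymes described here carry ethanol and its products through oxidation and on to acetyl-CoA. They are the alcohol dehydrogenases Adh1, Adh5 and Adh7, catalase (Cat), the cytochrome P450 Cyp2e1, the aldehyde dehydrogenases Aldh1a1, Aldh2 and Aldh3a2, and the acetyl-CoA synthetases Acss1 and Acss2. Members were the probe sets annotated to exactly 1 of these 10 symbols, and where a gene had several, the one with the highest mean over all arrays stood for it. A probe set is the group of short probes that reads 1 transcript. All 10 genes were found, as 11 of the 31099 probe sets. Of these genes, 9 matched by symbol, and Adh1 matched as a RefSeq synonym of Adh1c, the name used below. In all, 14217 genes had a probe set with 1 symbol.

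Ethanol is first oxidised to acetaldehyde. In liver this is mainly the work of cytosolic alcohol dehydrogenase, whereas in brain catalase, a peroxisomal enzyme that uses hydrogen peroxide, and CYP2E1 are known to do much of it. Acetaldehyde is then oxidised to acetate, chiefly by mitochondrial ALDH2. Acetate, made in the brain or brought in by the blood, is joined to coenzyme A by ACSS2 in cytosol and nucleus and by ACSS1 in mitochondria, and astrocytes are known for their use of acetate as fuel.

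The tissue was the central nucleus of the amygdala, an output nucleus made up largely of GABA neurons, from alcohol-preferring (P) rats, which were bred for high voluntary intake. In the ethanol group, 10 rats had solutions of 15% and 30% ethanol available in adolescence, and in the water group 10 rats had water alone. All 20 animals were P rats, so no group shows expression without that breeding, and each gave 1 array. The labels used here state no sex, age at sampling, amount drunk or time since the last drink, so the values cannot be tied to an ethanol dose.

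Values are log2 RMA summaries, on which a difference of 1 is a 2-fold change, and levels of different probe sets are not compared. Array medians lay between 7.92 and 7.97, and precision is limited by having 10 arrays per group. The 3' to 5' log2 ratio of control probe sets, a measure of RNA integrity, averaged 1.37 ± 0.178 in ethanol animals and 1.48 ± 0.213 in water animals (SD, n = 10 each). The GABA neuron markers Gad1 and Gad2 were above the filter in the tissue, as were 11 of the 12 markers listed for this nucleus. This does not single out the nucleus, since 10159 of all 14217 genes were above the filter. So were all 7 striatal neuron markers on the array. Arrays of ethanol animal 5 and water animals 15 and 18 correlated less with the rest, and in ethanol animal 5 and water animals 16 and 18 a score of meningeal fibroblast genes was over 9 (given with Aldh2 below). A score is the mean log2 value of the listed markers of a cell type. In bulk tissue, fewer cells of a type and less RNA per cell cannot be told apart.

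Of the enzymes, 7 genes were measured above the filter on dim probe sets, a mean log2 value over the 40th percentile, which was 7.14. These were Cat, Adh5, Aldh1a1, Aldh2, Aldh3a2, Acss1 and Acss2. Adh1c, Adh7 and Cyp2e1 lay under it. In the comparison of ethanol with water (limma, Benjamini-Hochberg adjustment over 18625 probe sets), 0 of the 7 were called at an adjusted p under 0.05, against a background of 0.0215%. At an unadjusted p under 0.05 there was 1, Acss1, against a background of 12.8% of all probe sets, 5.48% in the lower direction and 7.37% in the higher. Of the 7 genes, 6 had a lower mean in ethanol animals, against 42.2% of all probe sets. The median difference of the 7 genes was -0.15, beside a median of 0.016 over all probe sets tested.

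**Figure D1:**
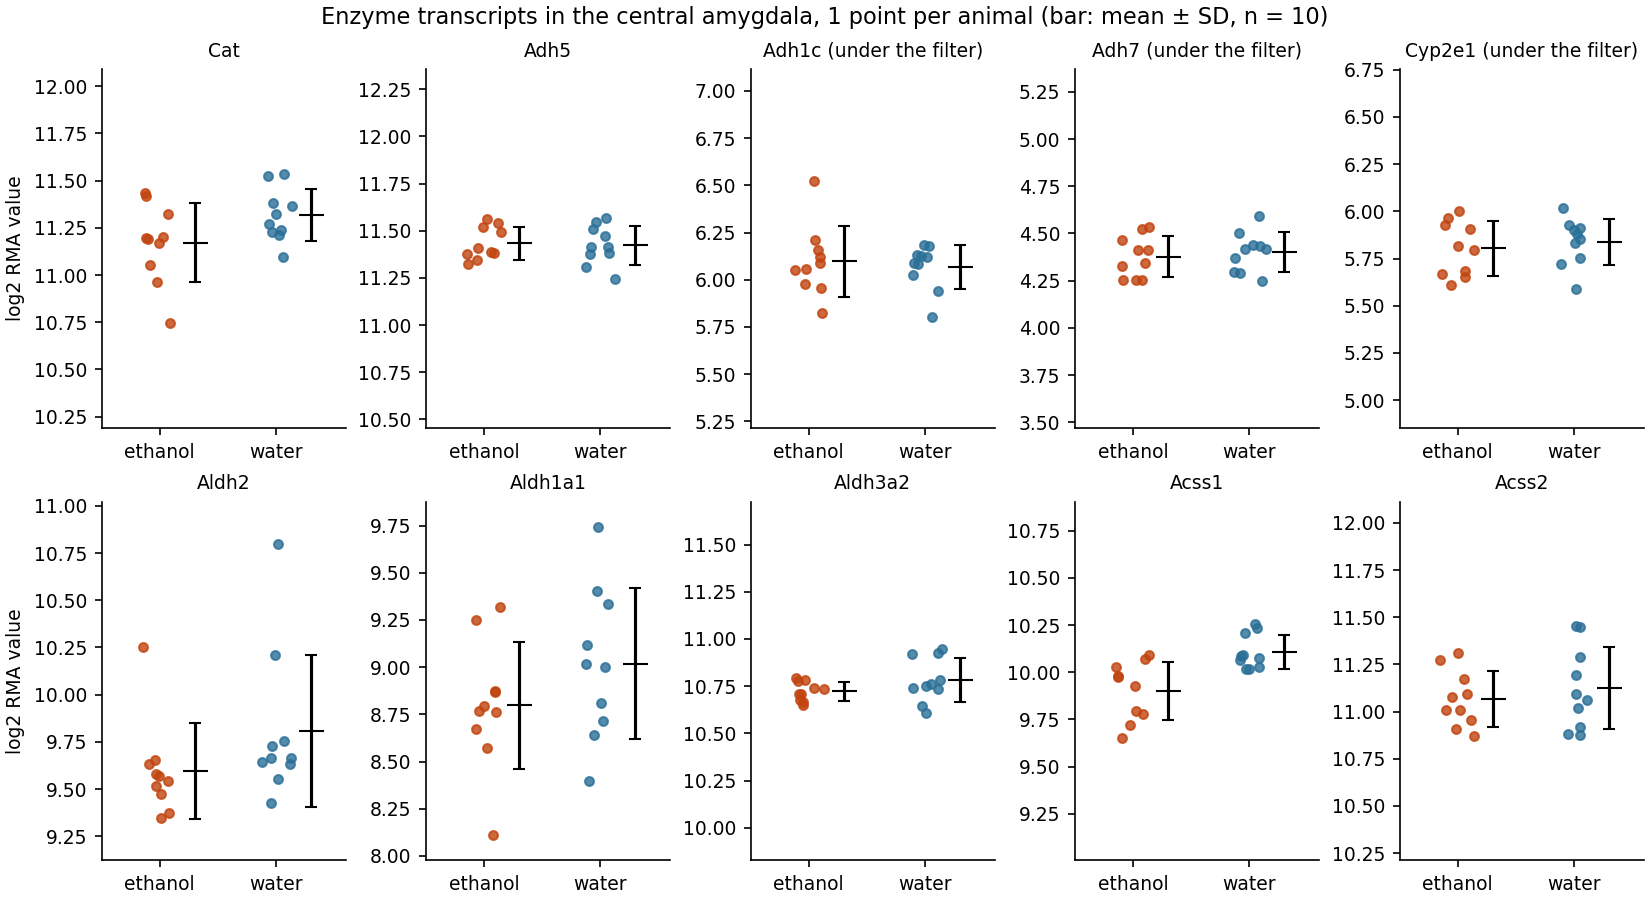
Log2 RMA value (y axis, each panel spanning the same range) of each enzyme gene's main probe set in ethanol animals, on the left, and water animals, on the right. Each point is 1 animal, and the bars show the mean and SD (n = 10 each). Acss1 has 10 of 10 ethanol animals below the water mean, and the ethanol and water points of Adh5, Adh7 and Cyp2e1 overlap throughout.

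Among the enzymes of the first step, catalase had a mean of 11.17 ± 0.209 in ethanol animals and 11.32 ± 0.138 in water animals (SD, n = 10 each). Its log2 values ran from 10.75 through a median of 11.19 to 11.43 in ethanol animals, against 11.10, 11.29 and 11.53 in water animals. The groups overlapped, with 3 ethanol animals below the lowest water animal. The difference was -0.15 (SE 0.076, 95% interval -0.31 to 0.01), with a limma adjusted p of 0.415. Within the 3 runs of the sample order, which no label names as a batch, it was -0.18, -0.29 and 0.19, the last from 2 animals per group.

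Adh5, the glutathione-dependent formaldehyde dehydrogenase of this family, oxidises ethanol poorly and is found in most tissues, the brain included. It ran from 11.33 through a median of 11.40 to 11.56 in ethanol animals and from 11.24 through 11.42 to 11.57 in water animals. All ethanol values lay within the water range, and the difference was 0.01 (SE 0.045, interval -0.08 to 0.10; limma adjusted p = 0.940).

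Adh1c, the classical liver ethanol dehydrogenase, Adh7, a stomach and epithelial form, and Cyp2e1, the ethanol-inducible P450, gave dim signals. The means of their main probe sets lay at percentiles 26.6, 1.21 and 22.9 of all probe sets. Adh1c had a mean of 6.10 ± 0.187 in ethanol animals and 6.07 ± 0.117 in water animals (SD, n = 10 each). Adh7 averaged 4.38 ± 0.109 in ethanol animals and 4.40 ± 0.106 in water animals. Cyp2e1 averaged 5.80 ± 0.143 in ethanol animals and 5.84 ± 0.123 in water animals. Fitted without a filter, the differences were 0.03 (SE 0.068), -0.02 (SE 0.050) and -0.03 (SE 0.060). At such signals a difference in mRNA may not be detectable. The other Adh1c probe set differed by -0.02 (SE 0.059) and followed the main one at r = 0.32 over the arrays, so neither gives a clear reading of the gene.

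Adh1c, Adh7 and Adh5 lie close together on chromosome 2. The RefSeq promoter table holds 8 of the 10 genes (build GRCr8), each with 250 bases before and 50 after 1 annotated start. The windows of Adh5 (chr2:229648307-229648606, plus strand) and Adh1c (chr2:229470453-229470752, plus strand) are shown as an example of how the start regions differ within this gene cluster. Matches of the GC box GGGCGG and of CCAAT, searched on both strands, are in capitals.
Adh5: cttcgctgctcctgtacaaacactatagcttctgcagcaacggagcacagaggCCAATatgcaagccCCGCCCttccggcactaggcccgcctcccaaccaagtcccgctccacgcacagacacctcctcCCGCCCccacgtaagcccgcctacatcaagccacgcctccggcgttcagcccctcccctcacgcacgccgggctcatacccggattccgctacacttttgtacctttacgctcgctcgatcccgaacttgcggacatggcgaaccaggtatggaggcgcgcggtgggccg
Adh1c: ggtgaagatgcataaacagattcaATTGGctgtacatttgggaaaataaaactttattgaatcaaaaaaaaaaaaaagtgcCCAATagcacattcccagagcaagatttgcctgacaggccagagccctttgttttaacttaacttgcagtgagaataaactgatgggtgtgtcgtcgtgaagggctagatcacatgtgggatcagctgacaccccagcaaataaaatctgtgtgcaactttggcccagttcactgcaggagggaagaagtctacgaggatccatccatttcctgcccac
The Adh5 window held 28 CpG, at the 87.3rd percentile of all promoters, 2 GC boxes and 1 CCAAT. The Adh1c window held 3 CpG, at the 22.3rd percentile, no GC box and 2 CCAAT. Of 33469 promoters, 33.1% hold a GC box and 37.5% a CCAAT. These matches describe the letters and show no binding.

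In the aldehyde step, Aldh2 had mean log2 values of 9.59 ± 0.253 in ethanol animals and 9.81 ± 0.403 in water animals (SD, n = 10 each), a difference of -0.21 (SE 0.140, interval -0.50 to 0.08; limma adjusted p = 0.513). Within the runs it was -0.13, -0.38 and -0.04. It ran from 9.35 through a median of 9.56 to 10.25 in ethanol animals and from 9.43 through 9.66 to 10.80 in water animals. The top of each range came from few animals. The highest values were 10.25 in ethanol animal 5, and 10.80 and 10.21 in water animals 18 and 16. Those were the animals with the highest scores of meningeal fibroblast genes, at 9.31 in ethanol animal 5, and 10.47 and 9.39 in water animals 18 and 16. The choroid plexus gene Ttr read 15.87 in ethanol animal 5, and 15.94 and 15.62 in water animals 18 and 16. High Ttr was not limited to these animals, since over the others it ran from 6.36 to 11.31 in ethanol animals and from 6.84 to 14.81 in water animals. Water animal 15 had a Ttr value of 14.80 and the lowest Aldh2 value of the water animals. In the other animals Aldh2 lay between 9.35 and 9.65 in the 9 ethanol animals and between 9.43 and 9.76 in the 8 water animals, and the meningeal score was 8.62 or less in ethanol animals and 8.71 or less in water animals.

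Without those 3 animals, left out after seeing the data, the Aldh2 difference was -0.11 (SE 0.053), with an unadjusted limma p of 0.0479 and an adjusted p of 0.502. Without the arrays that correlate less it was -0.21 (SE 0.074, adjusted p = 0.429). With the choroid plexus score as a covariate it was 0.01, and with the meningeal score it was -0.03. The meningeal score, with 8 of 9 markers above the filter, averaged 8.22 ± 0.450 in ethanol animals and 8.61 ± 0.780 in water animals, and all 8 markers had lower means in ethanol animals. Leaving out water animal 18 alone gave an Aldh2 difference of -0.10, and leaving out ethanol animal 5 alone gave -0.29.

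Aldh1a1, a cytosolic enzyme that makes retinoic acid and also oxidises acetaldehyde, had the widest spread over ethanol animals of the enzymes, from 8.11 through a median of 8.78 to 9.32. In water animals it ran from 8.40 through 9.01 to 9.74. Most ethanol values, 9 of 10, lay inside the water range. The difference was -0.22 (SE 0.154; limma adjusted p = 0.540), and -0.10, -0.60 and 0.31 in the runs. Aldh3a2, the fatty aldehyde dehydrogenase whose loss causes Sjögren-Larsson syndrome in humans, had means of 10.72 ± 0.050 in ethanol animals and 10.78 ± 0.116 in water animals (SD, n = 10 each). The difference was -0.06 (SE 0.043; limma adjusted p = 0.574), and all ethanol values lay within the water range. Aldh3a2 differed by -0.01 with the myelin score as a covariate.

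Acss1, which activates acetate in mitochondria, gave the clearest separation of the enzymes, although it too missed the adjusted threshold. It ran from 9.65 through a median of 9.95 to 10.09 in ethanol animals and from 10.02 through 10.08 to 10.26 in water animals. All 10 ethanol animals lay below the water mean, and 7 of them lay below the lowest water animal. The means were 9.90 ± 0.154 in ethanol animals and 10.11 ± 0.091 in water animals (SD, n = 10 each). The difference was -0.21 (SE 0.057, interval -0.32 to -0.09), a 1.15-fold lower level, with an unadjusted p of 0.00153 and an adjusted p of 0.239 by limma. It was -0.31, -0.14 and -0.15 within the runs.

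The Acss1 difference kept its sign in every fit made, from -0.15 to -0.22 over the alternatives and from -0.18 to -0.23 with each animal left out in turn. With the myelin score as a covariate it was -0.16 (unadjusted limma p = 0.0104). The lowest adjusted p over the alternatives was 0.118, with array quality weights. Acss2, the cytosolic and nuclear enzyme, differed less, with means of 11.07 ± 0.147 in ethanol animals and 11.12 ± 0.217 in water animals (SD, n = 10 each). It ran from 10.87 through a median of 11.04 to 11.31 in ethanol animals and from 10.88 through 11.08 to 11.45 in water animals, and the groups overlapped. Its difference was -0.06 (SE 0.080; limma adjusted p = 0.783), was -0.04, -0.19 and 0.17 in the runs, and was 0.06 with the myelin score as a covariate.

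**Figure D2:**
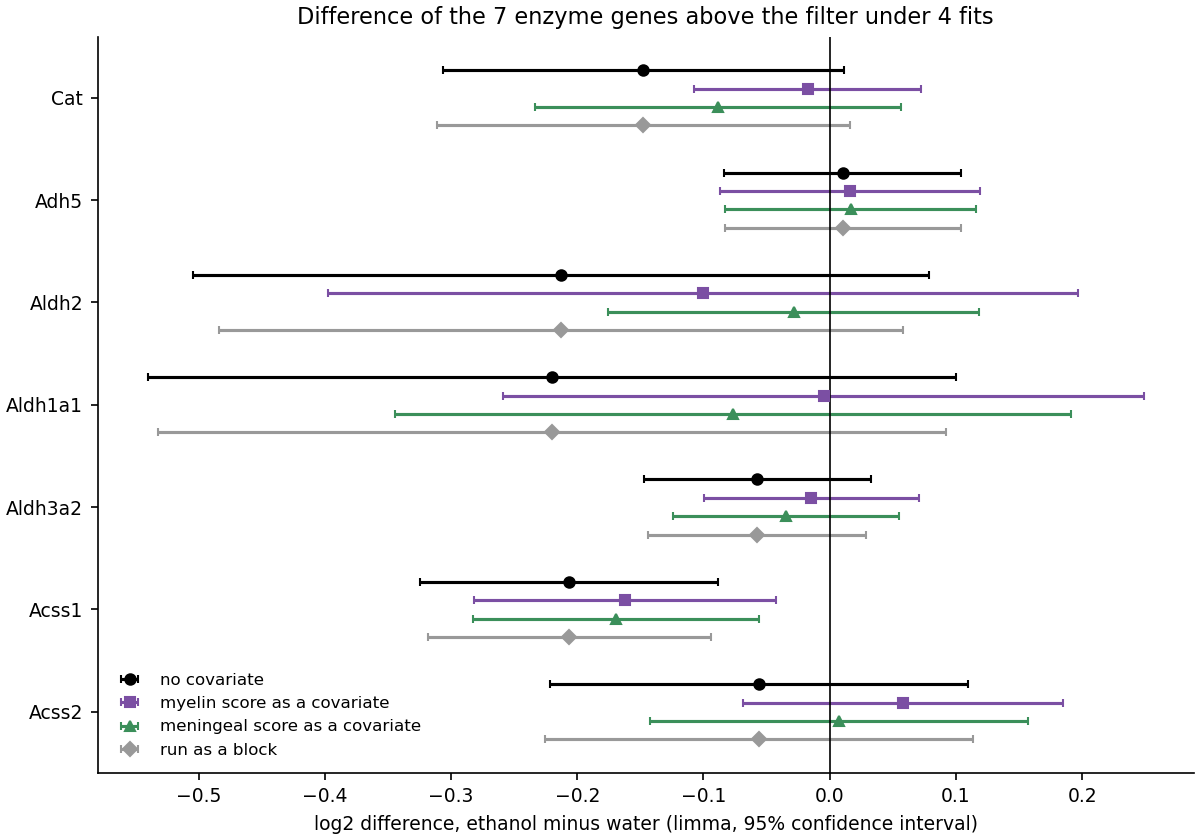
Ethanol minus water log2 difference (x axis, with 95% interval) of the 7 enzyme genes above the filter, in 4 fits: with no covariate, with the myelin score, with the meningeal score, and with the run as a block. Acss1 stays below 0 in all 4, while Cat, at -0.15 with no covariate, is at -0.02 with the myelin score.

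Beside these enzymes, mean scores of several cell types differed between the groups, and the scores were not tested. Of the markers in each list named here, 0 were called by limma at an adjusted p under 0.05. The myelin score, from 11 of 12 markers, averaged 12.27 ± 0.487 in ethanol animals and 12.63 ± 0.394 in water animals (SD, n = 10 each). It ran from 11.31 to 12.89 in ethanol animals and from 12.01 to 13.15 in water animals. All 11 markers had a lower mean in ethanol animals. The score differed by -0.35, -0.76 and 0.41 in the runs, with the same sign as Cat, Aldh1a1, Aldh3a2 and Acss2 in each run. These signs were not particular to myelin. The astrocyte score differed by -0.13, -0.08 and 0.03 in the runs, and the meningeal score by -0.22, -0.78 and 0.05. Adjusted for the myelin score, Cat differed by -0.02 and Aldh1a1 by -0.0048. Adjusted for the astrocyte score, Cat differed by -0.04 and Aldh1a1 by -0.10. Adjusted for the meningeal score, Cat differed by -0.09 and Aldh1a1 by -0.08. The astrocyte score, with Gfap and Aqp4, averaged 12.73 ± 0.104 in ethanol animals and 12.82 ± 0.055 in water animals, and 11 of 12 markers had a lower mean in ethanol animals. The shift was uneven, since Gfap differed by -0.51 against a median of -0.058 over the 12 markers. The choroid plexus score had the largest shift, at 7.82 ± 1.30 in ethanol animals and 9.02 ± 1.43 in water animals, with all 5 markers lower in ethanol animals and differences of -1.27, -1.21 and -1.03 in the runs. The neuron score averaged 12.12 ± 0.102 in ethanol animals and 11.98 ± 0.122 in water animals, and all 10 markers had a higher mean in ethanol animals. All 7 striatal neuron markers had a higher mean in ethanol animals too, with a score of 10.33 ± 0.390 in ethanol animals and 10.13 ± 0.320 in water animals. With the choroid plexus score as a covariate Acss1 differed by -0.15. The part of myelin or other cells in the differences was not tested beyond these fits.

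Further genes of the pathway were described from 3 lists. Among 21 measured dehydrogenases and reductases of alcohols, aldehydes and carbonyls (of 29 listed), 11 had a lower mean and 10 a higher mean in ethanol animals, and 0 were called. At an unadjusted limma p under 0.05, 2 were lower and 1 was higher, against 5.48% and 7.37% of all probe sets. The median difference was -0.0087. Aldh1l1, a folate enzyme used as an astrocyte marker, differed by -0.28 (SE 0.096; adjusted p = 0.295). Aldh1b1, a mitochondrial relative of Aldh2 that also oxidises acetaldehyde, differed by 0.16 (SE 0.056; adjusted p = 0.302). Aldh4a1 of proline breakdown and Aldh6a1 of valine breakdown differed by -0.13 each (adjusted p = 0.373 and 0.462).

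Among 16 measured genes of acetate and acetyl-CoA handling (of 23 listed), 9 had a lower mean and 7 a higher mean in ethanol animals, and 0 were called. At an unadjusted limma p under 0.05 there were 2 in each direction, against 5.48% lower and 7.37% higher of all probe sets. Acss3, a mitochondrial relative of Acss1, averaged 7.80 ± 0.278 in ethanol animals and 8.29 ± 0.594 in water animals (SD, n = 10 each), a difference of -0.49 (SE 0.192; limma adjusted p = 0.320). Nat8l, which uses acetyl-CoA to make N-acetylaspartate, differed by 0.21 (adjusted p = 0.328). The monocarboxylate carrier Slc16a7 differed by 0.22 (adjusted p = 0.364). The lipogenic factor Srebf1 differed by -0.16 (adjusted p = 0.354).

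Among 15 measured genes of microsomal and peroxisomal oxidation (of 22 listed), 7 had a lower mean and 8 a higher mean in ethanol animals, and 0 were called. Here too 2 in each direction had an unadjusted limma p under 0.05. Whether the counts of the lists exceed the shares of all probe sets was not tested. Pex5, the receptor that brings catalase and other proteins into peroxisomes, averaged 10.65 ± 0.099 in ethanol animals and 10.51 ± 0.064 in water animals (SD, n = 10 each), a difference of 0.15 (SE 0.041; limma adjusted p = 0.239). Cyb5b of the outer mitochondrial membrane differed by 0.09 (adjusted p = 0.284). The peroxisomal fatty acid transporter Abcd3 differed by -0.12 (adjusted p = 0.302), and Cyp51 of cholesterol synthesis by -0.15 (adjusted p = 0.372).

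Between animals given the same drink, several of the enzymes varied together. After each group's mean was removed, Pearson's r was computed for all 45 gene pairs over the 20 animals, with a two-sided permutation within groups and Benjamini-Hochberg adjustment over the 45. By this test 8 pairs were called, and the share called among pairs of other genes was not computed. Cat and Acss2 gave the tightest pair, at r = 0.75 (Spearman's rho = 0.72, permutation p = 4.0e-05, adjusted p = 0.00180). It was 0.74 in ethanol animals and 0.87 in water animals, 0.75 without the 2 animals farthest from the median of Cat, and 0.68 in the 17 animals with a meningeal score of 9 or less. It was called with each of the 20 animals left out in turn, at r between 0.71 and 0.79. Over 10158 other genes, the 99th percentile of r was 0.86 for Cat and 0.80 for Acss2. The r of this pair lay below both, so it is not among the highest for either gene.

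Cat and Aldh1a1 gave r = 0.73 (rho = 0.61, permutation p = 0.00022, adjusted p = 0.00495), with 0.75 in ethanol animals and 0.79 in water animals. Without the 2 animals farthest from the median it was 0.57, and leaving out ethanol animal 3 ended the call (adjusted p = 0.0605). The acetate enzymes, Acss1 and Acss2, gave r = 0.60 (rho = 0.56, permutation p = 0.00269, adjusted p = 0.0303), with 0.50 in ethanol animals and 0.85 in water animals. Without the 2 animals farthest from the median of Acss1 it was 0.67, and in the 17 animals 0.63 (adjusted p = 0.0809). This call was lost without ethanol animal 3 or water animals 16, 18 or 20. The other 5 calls were less stable over the 20 fits with an animal left out. Aldh2 with Acss1 held in 15 of them, and Aldh1a1 with Acss2 and Aldh2 with Acss2 in 7 each. Cat with Aldh2 and Cat with Aldh3a2 held in 4 each. Every one of the 20 animals ended at least 1 call of a pair or of a pair with a score when left out. Over the 17 animals 3 pairs were called, Cat with Acss2, Aldh2 with Acss2 at 0.72 and Cat with Aldh2 at 0.70, each at an adjusted permutation p of 0.0376. The 3 animals left out there held the highest Aldh2 values and were chosen after seeing the data. The calls with Aldh2 over the 17 therefore rest on a subset selected in part on Aldh2. Adh5 and the dim genes Adh1c, Adh7 and Cyp2e1 were in none of the called pairs.

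The enzymes also varied with cell type scores, tested over 110 pairs of a gene and a score, of which 14 were called. The share of other genes called with these scores was not computed, so the count is not shown to be particular to the enzymes. Cat followed the myelin score most closely, at r = 0.90 (rho = 0.88, permutation p = 1e-05, the smallest these permutations can give, adjusted p = 0.0011). The value was 0.91 in ethanol animals and 0.88 in water animals, and 0.84 without the 2 animals farthest from the median. Over the 17 animals it was 0.91. Acss2 followed myelin at r = 0.75 (rho = 0.78, adjusted permutation p = 0.00825) and the astrocyte score at 0.63 (rho = 0.69, adjusted p = 0.0174). These 3 were called with every animal left out in turn. Aldh1a1 followed myelin at 0.71 (rho = 0.63, adjusted p = 0.0126), a call lost without ethanol animal 3. It was also called with the endothelial score at 0.64 (rho = 0.74, adjusted permutation p = 0.0432) and with the meningeal score at 0.63 (rho = 0.78, adjusted p = 0.0432). These calls held in 9 and 7 of the 20 fits with an animal left out. Over the 17 animals Aldh1a1 gave 0.83 with the meningeal score (adjusted permutation p = 0.00385), 0.69 with myelin and 0.68 with the endothelial score. Adh5 followed the central amygdala GABA neuron score at 0.62 over the 20 animals (adjusted p = 0.0497, held in 3 of 20 such fits) and at 0.82 over the 17 (adjusted p = 0.00623). Acss1 and the astrocyte score gave 0.41 over the 20 animals (adjusted p = 0.312), which was not called, and 0.72 over the 17 (adjusted p = 0.0497). Aldh2 and the astrocyte score gave -0.017 over the 20 animals (adjusted permutation p = 0.954), which was not called, and 0.73 over the 17 (adjusted p = 0.0204). All values over the 17 animals, those of Cat, Aldh1a1 and Adh5 included, rest on a subset chosen after seeing the data. That subset was cut on the meningeal score itself. Aldh2 and the meningeal score gave r = 0.06 in the 17 animals. No r over all animals is given for Aldh2 with this score, since the 3 animals form a separate cluster.

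With the myelin score removed from every gene, 0 of the 45 pairs were called. Cat with Acss2 was then r = 0.25, Cat with Aldh1a1 0.31, Acss1 with Acss2 0.47 and Aldh2 with Acss2 0.52. No other score was removed in this way. The myelin score itself followed the astrocyte score at r = 0.76 and the microglia score at 0.73. Which of these scores the loss of calls depends on was not tested.

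**Figure D3:**
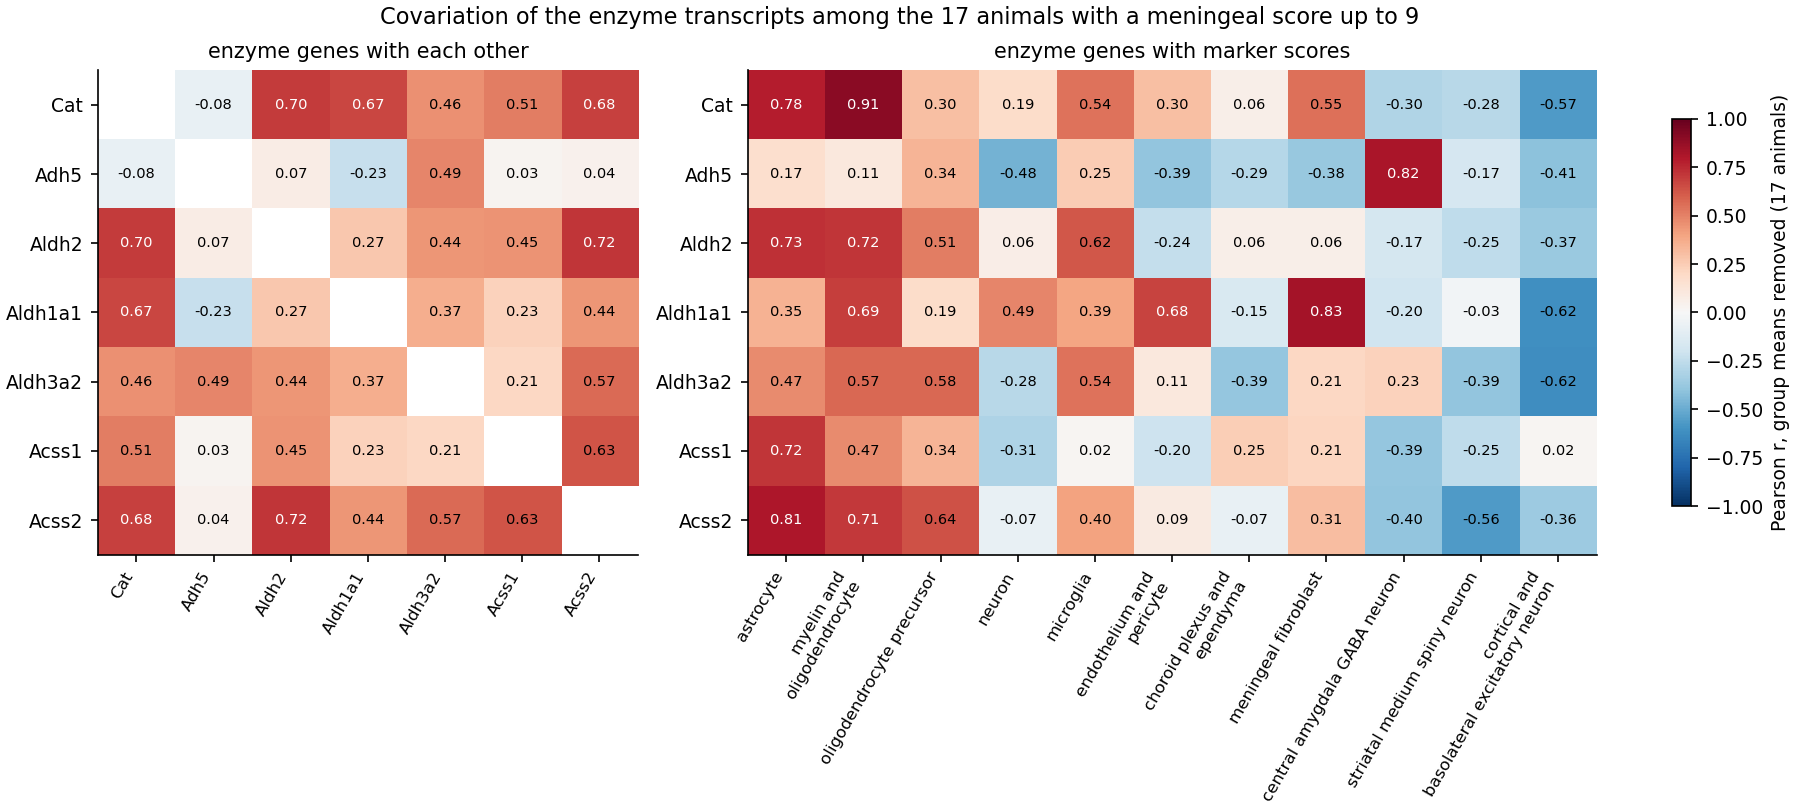
Pearson's r (colour scale) of the 7 enzyme genes above the filter among themselves, on the left, and with 11 cell type scores, on the right, after removal of group means, over the 17 animals with a meningeal score of 9 or less. The row of Cat is strongest for the myelin score, at 0.91, and Adh5 is strongest for the central amygdala GABA neuron score, at 0.82.

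**Figure D4:**
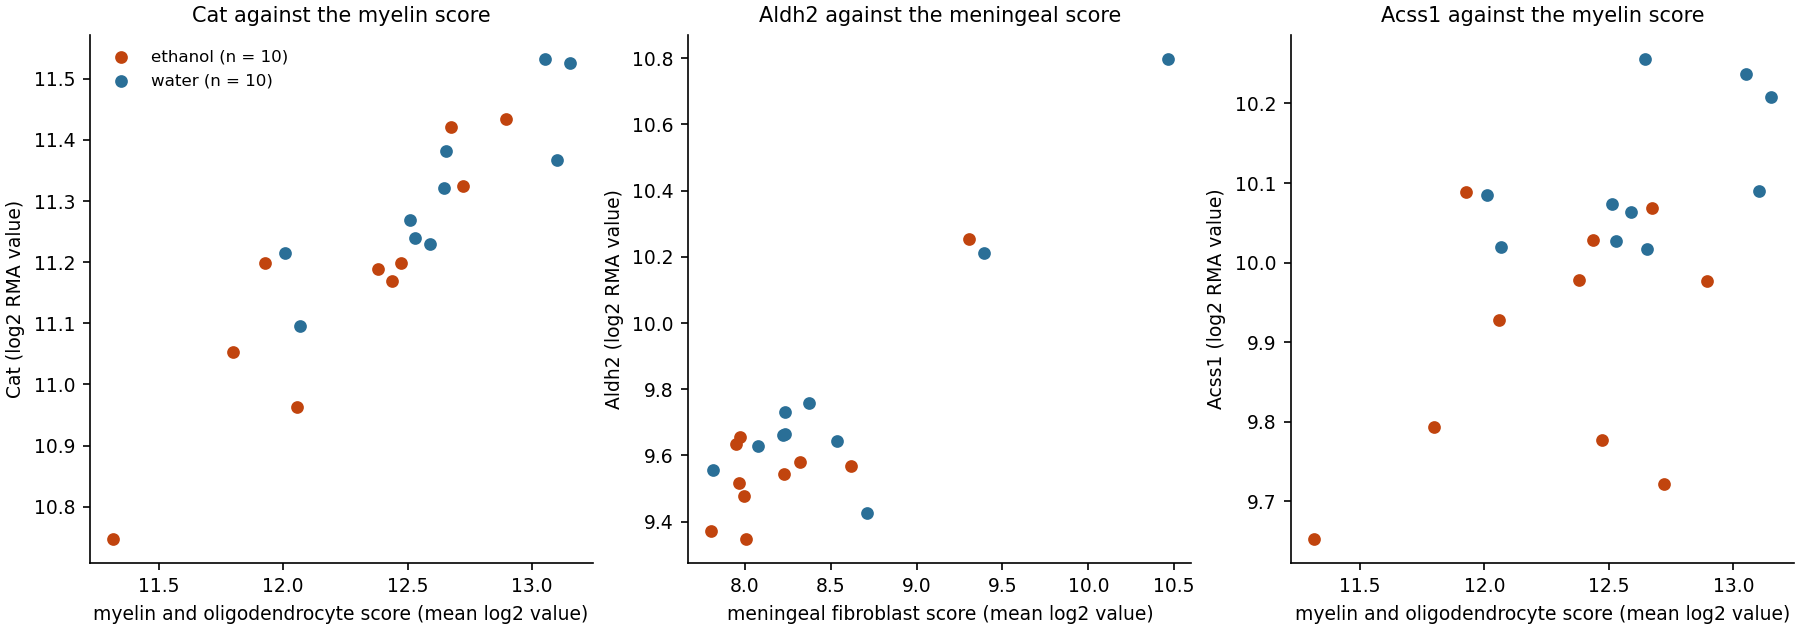
Log2 value of Cat against the myelin score, Aldh2 against the meningeal score, and Acss1 against the myelin score, with 1 point per animal, ethanol and water animals in different colours. Cat is higher where the myelin score is higher in both groups, while the 3 highest Aldh2 values belong to the 3 animals with a meningeal score over 9.

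The promoters of Cat (chr3:110329477-110329776, minus strand) and Acss2 (chr3:164464453-164464752, plus strand), the genes of the tightest pair, are shown with matches of GGGCGG and CCAAT on both strands in capitals.
Cat: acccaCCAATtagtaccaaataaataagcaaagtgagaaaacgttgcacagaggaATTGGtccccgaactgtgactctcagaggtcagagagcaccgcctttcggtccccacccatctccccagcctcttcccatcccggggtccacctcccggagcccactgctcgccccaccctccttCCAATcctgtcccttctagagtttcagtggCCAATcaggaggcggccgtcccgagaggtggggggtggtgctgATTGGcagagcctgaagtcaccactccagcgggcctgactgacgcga
Acss2: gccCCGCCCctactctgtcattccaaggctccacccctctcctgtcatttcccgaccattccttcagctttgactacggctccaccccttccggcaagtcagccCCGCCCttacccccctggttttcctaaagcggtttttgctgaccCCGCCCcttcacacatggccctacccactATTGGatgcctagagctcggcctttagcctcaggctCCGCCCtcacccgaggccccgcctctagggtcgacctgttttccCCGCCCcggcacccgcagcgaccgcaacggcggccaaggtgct
Cat held 5 CCAAT and no GC box, and 5 or more CCAAT occur in 0.218% of all promoters of this length. Acss2 held 5 GC boxes and 1 CCAAT, and 5 or more GC boxes occur in 2.34%. The windows share few of these motifs, and neither held TATAAA or the sterol element TCACNCCAC, which occur in 14.2% and 1.12% of promoters.

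For each enzyme above the filter, the 3 genes with the highest r over the 20 group-centred values were found among 10158 others. Cat was nearest to Gsn, which encodes the actin-severing protein gelsolin, at 0.94, then to Aif1l at 0.94 and to the adhesion molecule Mcam at 0.93. Acss1 was nearest to Hacl1, a peroxisomal lyase of fatty acid oxidation, at 0.89, then to Fgfbp3 at 0.80 and Tnc, the matrix protein tenascin C, at 0.78. Acss2 was nearest to Ldlrad3 at 0.90, Amotl2 at 0.89 and Psat1, an enzyme of serine synthesis, at 0.89. Adh5 was nearest to Gcdh, the glutaryl-CoA dehydrogenase of lysine breakdown, at 0.90, then to Dnlz at 0.89 and Cnpy2 at 0.85. Aldh1a1 was nearest to Stard5, a lipid-binding protein, at 0.91, then to Tstd1 at 0.90 and Srgn, the proteoglycan serglycin, at 0.88. Aldh3a2 was nearest to the ribosomal protein gene Rps24 at 0.87, then to Spcs1, a signal peptidase subunit, and Daam1, at 0.85 each. The genes nearest to Aldh2 over the 20 animals were Cab39l, Anxa2, a membrane-binding annexin, and Serpinh1, a collagen chaperone, a ranking that includes the 3 animals with high meningeal scores. In the 17 others their r with Aldh2 was 0.58, 0.57 and 0.56, below that of Acss2 (0.72) and Cat (0.70). All genes were not ranked over the 17, so the place of Acss2 and Cat among them is not known. These values are a description of the same arrays, and the 99th percentile of r over all genes was 0.86 for Cat and 0.63 for Acss1. The nearest genes were picked for the highest r, so they lie above that percentile by selection.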

How the data were processed

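The data are Affymetrix rat arrays, 1 for each of 20 P rats. Trizol and a Qiagen column gave the RNA, and biotinylated cRNA was made with a 3' IVT kit, per the labels' protocols. The deposited values are the authors' log2 summaries per probe set, made with RMA per the submitters' processing notes. That the base is 2 rests on RMA and on the range of values, 3.82 to 16.16. The authors' test is not given in the sources used.

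Of 31099 probe sets, 57 were controls, 20826 had 1 symbol, 436 several and 9780 none. Entrez identifiers of 20764 were in the GRCr8 RefSeq gene table, which changed 0 symbols. Probe sets with a mean above the 40th percentile were kept (18625). Differences came from limma 3.58.1 in R 4.3.3 (lmFit and eBayes, two-sided). Correlations used group-centred values and 100000 permutations within groups. Python 3.11.15 was used, with matplotlib 3.10.9, scipy 1.17.1, pandas 2.3.3 and numpy 2.4.6. The fits were tested on simulated data.

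Groups came from the labels. Limma p-values set a group difference against the spread between animals within groups. Permutation p-values set an r against those of animals shuffled within groups. The members, the lists and the tests were chosen with earlier results of these data known. Named genes were the members, for each enzyme above the filter the 3 genes with the highest r, the 4 smallest p of each pathway list, and the scores and first 2 markers of cell type lists, some of which are not reported here. Alternatives were no filter and the 60th percentile, median centring, cyclic loess, array weights, eBayes with trend, a block for the run, covariates (control 3' to 5' ratio, cell type scores), the mean of a gene's probe sets, and animals left out. Leaving out the animals with a meningeal score over 9 was chosen after seeing the data.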

Additional observations from a re-analysis of the deposited data

Results flagged for a closer look

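Aldh2 in ethanol animal 5, at 10.25, stood apart from the other ethanol animals, the next of which was at 9.65. The gap was 0.662 of the group's range, above Dixon's critical value for 10 samples. It was the 1 flag among 22 groups tested, and chance flags about 1 in 20 groups. The same animal had a meningeal score of 9.31 and a choroid plexus score of 11.06, and its part in the Aldh2 value was not tested.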

How the results depend on the processing

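No paired analysis was possible because the animal numbers of the ethanol and water groups do not overlap. Under 16 alternatives and with each of 20 animals left out, 0 enzyme genes were called. The differences of Cat, Aldh1a1, Aldh3a2 and Acss1 kept their sign in all of them. Adh5 became -0.012 with cyclic loess, -0.0023 with the 3' to 5' ratio and -0.013 without the arrays that correlate less, and ran from -0.0095 to 0.026 with an animal left out. Acss2 became 0.058 with the myelin score, 0.059 with the astrocyte score, 0.0074 with the meningeal score and 0.032 without the animals with a meningeal score over 9, and Aldh2 became 0.0078 with the choroid plexus score. A second enzyme, beside Acss1, had an unadjusted limma p under 0.05, making 2, with cyclic loess, array weights, the 3' to 5' ratio, and without the 3 arrays or the 3 animals, and the range was 1 to 2 with an animal left out. The 4 probe sets called overall were 2 with the 60th percentile filter, 23 with array weights, 0 with the myelin score (2359 at an unadjusted p under 0.05) and 0 with the astrocyte score (1882), 1 with the choroid plexus, the meningeal or the striatal and cortical scores and without the animals with a high meningeal score, and 1 to 8 with an animal left out. With cyclic loess the probe sets at an unadjusted p under 0.05 were 972 higher and 1309 lower, against 1373 and 1020 in the deposited values. The 8 enzyme pairs were 3 with median centring, 4 centred within run and group, 3 without the high meningeal animals, 0 with the myelin score removed and 1 to 9 with an animal left out. The 14 pairs with a score, of 110, were 5 with Spearman's rho, 7 with median centring, 6 centred within run and group and 5 to 18 with an animal left out. With the myelin score removed they were 4 of 100. Pairs with the myelin score itself dropped out there, so calls with it could not recur. Beyond that, the cause of these changes was not tested. Signal limits Adh1c, Adh7 and Cyp2e1, which lay under the filter.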

Other observations

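Aldh3a2 spread less over ethanol animals, from 10.65 to 10.79, than over water animals, from 10.61 to 10.95, and the difference in spread was not tested.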
